A study of Mus musculus with 7 samples.

Results

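Cells that carried mRNA of basal keratins and of smooth muscle genes were selected from 7 mammary tumors by their counts of 6 genes. A unique molecular identifier (UMI) marks each captured mRNA molecule, so that a UMI count is a count of molecules. A member had at least 4 UMIs of 1500015O10Rik, Krt14, Krt5, Krt17, Acta2 and Mylk together, from at least 2 of these genes, no UMI of the endothelial genes Pecam1 and Cdh5, and at most 2 UMIs of the fibroblast genes Col1a1, Col3a1 and Dcn. There were 183 members among 15047 cells, or 1.22% (exact binomial 95% interval 1.05 to 1.40%, for counting error only). Since these values chose the members, the levels of the rule's genes are given as a description and were not tested.

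All 7 mice belonged to 1 group. They carried the polyoma middle T transgene (PYMT) under the MMTV promoter, which is active in mammary epithelium, and floxed Hk2 alleles (MMTV-PyMT;HK2 f/f). Per the paper's methods, control mice received tamoxifen but had no Cre, so that Hk2 was not deleted, and the labels give their genotype as wild type. The labels date the tumors to 3 months from when they could be felt and give no age, and each mouse gave 1 library. The titles form a CB series (replicates 1, 2, 3 and 4) and a WT series (replicates 5, 7 and 8), and what sets the series apart is not stated.

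Myoepithelial cells form the outer, basal layer of mammary ducts and alveoli, between the luminal cells and the basement membrane. They contract through smooth muscle actin and myosin when oxytocin binds its receptor, which drives milk out of the alveoli, and they contribute collagen IV and laminins to the basement membrane. In tumors the layer is known for surrounding in situ growth and for its loss when growth becomes invasive.

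Depth was low, with medians of 527 to 694 UMIs per cell in the 7 mice, so levels are given on sums over cells, as UMIs of a gene per 1000000 UMIs of the class in a mouse (CPM). The members were compared with luminal epithelial cells, fibroblasts and immune cells (2141 cells). Luminal epithelial cells (5166 cells) had at least 3 UMIs of Epcam, Krt8 and Krt18 and none of the 6 genes. Fibroblasts (835 cells) had at least 4 UMIs of Col1a1, Col3a1 and Dcn, from at least 2 of these genes. They had no UMI of Pecam1, Cdh5 or the 6 genes, so fibroblasts with an Acta2 or Mylk UMI were left out. Replicates 2, 3 and 7 stood apart, since almost none of their members had fewer than 3 UMIs of Epcam, Krt8 and Krt18 together. Over all libraries 5 cell barcodes were shared.

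The members were of 2 kinds. Of the 183 members, 89 had fewer than 3 UMIs of Epcam, Krt8 and Krt18 together, and 66 of these had none. They are called Krt8/Krt18-low members here. The other 94 had at least 3 such UMIs, 84 of them more than 5, and are called Krt8/Krt18-high members. A few of these reached the limit through Epcam alone and had no Krt8 or Krt18 UMI, so the name does not describe them. Krt8 and Krt18 form the keratin filaments of luminal cells, and Epcam is an adhesion protein of epithelia. In the comparisons that follow, smooth muscle markers outside the rule were found chiefly in the low members, so the name myoepithelial describes the 2 kinds unequally. Nor does the name describe all low members alike, since 58 of the 89 had no Krt14, Krt5 or Krt17 UMI. In the sums of the 47 such cells of replicates 4 and 8, genes not typical of myoepithelial cells were high, as given later.

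The 2 kinds were unevenly spread over the mice. The Krt8/Krt18-low members numbered 10, 0, 0, 47, 20, 1 and 11 in replicates 1, 2, 3, 4, 5, 7 and 8, and the Krt8/Krt18-high members 7, 7, 25, 9, 7, 34 and 5. In replicates 2, 3 and 7 the low kind was therefore at 0 cells or a single cell. As shares of all cells of a mouse, members made up 0.790%, 0.352%, 1.998%, 1.17%, 1.74%, 1.60% and 1.41% in that order (mean 1.29% ± 0.571, SD, n = 7). With 0 of 1988 and 0 of 1251 cells, the upper exact bounds for the low kind in replicates 2 and 3 were 0.185% and 0.294%.

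**Figure D1:**
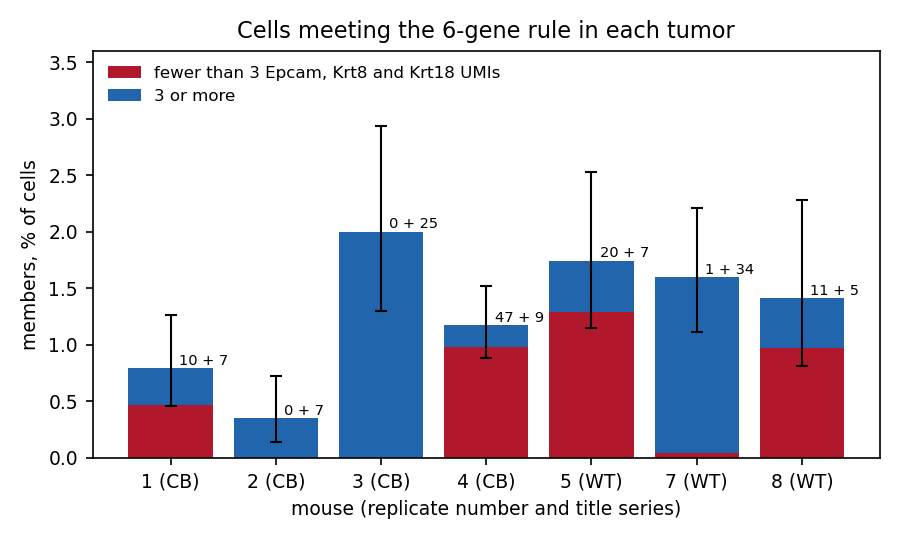
Members as a percentage of all cells in each of the 7 tumors (bars, with 95% exact binomial intervals for all members), split into Krt8/Krt18-low (red) and Krt8/Krt18-high (blue) cells. The numbers beside the bars count low and high members, and replicates 2, 3 and 7 hold almost no red part.

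The 6 genes that chose the members were themselves divided between the 2 kinds. Acta2, which encodes smooth muscle actin, had a UMI in 69 of the 89 low members and in 20 of the 94 high ones, and Mylk, the kinase that activates smooth muscle myosin, in 59 and 11. Krt14, a keratin of basal cells, went the other way, with a UMI in 12 low and 82 high members, and Krt17 in 11 and 60. Krt5, the usual partner of Krt14 in filaments, was seen in 20 low members and 5 high ones. 1500015O10Rik, which encodes a secreted peptide, had 519 UMIs in 66 low members and 78 UMIs in 24 high members. In all, 86 of the low members had Acta2 or Mylk, and 58 of them had no basal keratin UMI, whereas 85 of the high members had a basal keratin UMI and 24 had Acta2 or Mylk.

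**Figure D2:**
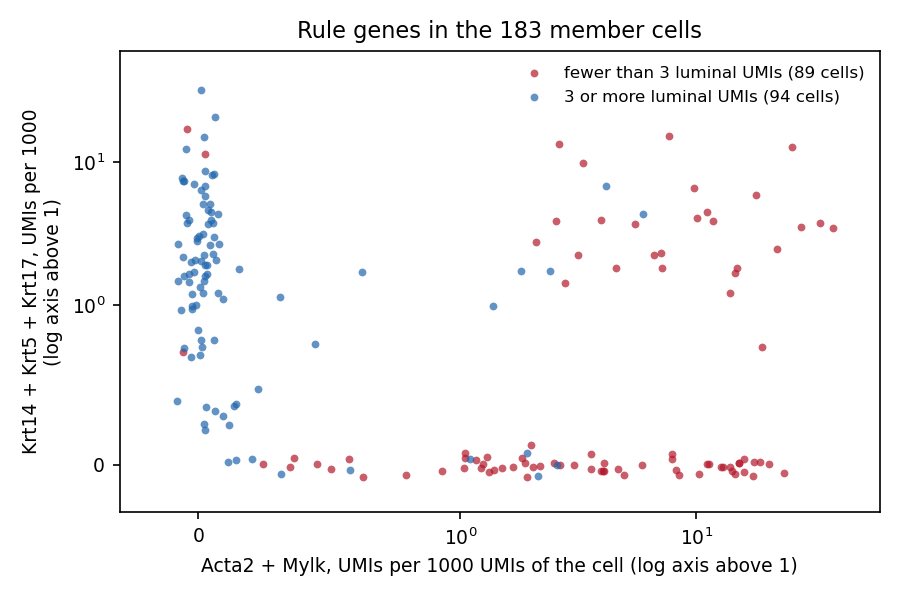
Each point is 1 of the 183 members, placed by its Acta2 and Mylk UMIs (horizontal) and its Krt14, Krt5 and Krt17 UMIs (vertical), both per 1000 UMIs of the cell on axes that are linear below 1 and logarithmic above, with small random shifts so that points at 0 can be seen. Most low members (red, 89 cells) lie along the bottom or to the right, and most high members (blue, 94 cells) stand at the left edge, with keratin and without Acta2 or Mylk.

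The high members were also the deepest cells, and the rule counts UMIs. Their median was 3007.5 UMIs, against 763 in the low members and medians of 676 to 1179 in the luminal epithelial cells of a mouse. The 6 genes took 0.845 to 1.75% of the UMIs of the low members in the 4 mice with at least 10 of them, and 0.123 to 0.468% in the high members. When each cell of at least 500 UMIs was thinned to 500, 30 of 57 low members and 7 of 92 high members still met the rule, as did 15 other cells. The limits were close to many cells. Of the members, 39 had just 4 UMIs of the 6 genes and 30 had 5, while 29 cells with 3 UMIs and 98 cells whose UMIs came from 1 gene lay just outside.

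Cells of other types held some UMIs of these genes. Among 2141 immune cells, with medians of 602 to 837 UMIs, 0.514% had a Krt14 UMI and 1.45% an Acta2 UMI, and 2 cells met the rule. 1500015O10Rik had a UMI in 25 immune cells (1.17%) and stood at 84.2 CPM in those of replicate 4 (48 UMIs) and 457 CPM in replicate 8 (74 UMIs), and had 0 to 2 UMIs in each of the other mice. Among 5988 other cells with at least 3 UMIs of Epcam, Krt8 and Krt18, with medians of 719 to 1369.5 UMIs, 7.78% had a Krt14 UMI. That share was 15.3% in replicate 3 and 17.3% in replicate 7, the mice with the most high members, and 2.68% in replicate 4.

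Over all members, the genes that differed from luminal epithelial cells of the same mouse were few, and among the higher ones were contractile, insulin-like growth factor binding and matrix genes. Sums per mouse were compared by the quasi-likelihood test of edgeR with a block for the mouse, in the 6 mice with at least 10 members and without the 14 genes that chose the cells. Of 3182 genes tested, 30 (0.943%) were higher and 18 (0.566%) lower in members at an adjusted p under 0.05. With no such block the fit called 20 higher and 4 lower. Leaving out replicate 5 brought the calls from 48 to 25, and leaving out replicates 3 and 7, which held hardly any low members, to 100 (77 higher and 23 lower). The median log2 difference of all genes tested was -0.03. As the 2 kinds are mixed here in proportions that differ between mice, they are then taken separately.

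Igfbp2, which binds insulin-like growth factors, led the higher genes. Its level in members was 365, 19.5, 837, 771, 119 and 5500.0 CPM in replicates 1, 3, 4, 5, 7 and 8, against 1.01 to 68.9 CPM in luminal cells of the 7 mice. Replicate 8 stood far above the others, and replicate 3 lay within the luminal range. The log2 fold change was 5.22 ± 0.55 (SE), with an edgeR adjusted p of 0.000102, and members were higher in 6 of 6 mice. The same direction in every mouse was a condition for naming the leading genes.

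The other genes that led the higher side were Tpm2 (tropomyosin), Vim (the mesenchymal filament protein vimentin), Aebp1, Timp3 (an inhibitor of matrix metalloproteinases), Sfrp1 (a Wnt antagonist), Igfbp4, Palld (an actin-bundling protein), Serpine2 and Flna (filamin A), at log2 fold changes from 4.02 for Tpm2 to 2.09 for Flna, each in 6 of 6 mice. Sparc, a collagen-binding matrix protein, was higher by 4.62 ± 0.81 (edgeR adjusted p = 0.00735) in 5 of 6 mice, with 0 UMIs in the members of replicate 3.

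The genes that led the lower side were of mixed kinds. Scgb2b27, a secretoglobin, differed by -5.37 ± 0.43 on the log2 scale, the fibrinogen genes Fgb and Fgg by -5.02 and -3.39, and Fam25c, Glul, AW112010, Fxyd2, Pcp4 and Tspan13 by -3.09 to -2.41, each lower in 6 of 6 mice. Lalba, the milk protein that completes lactose synthase, differed by -2.31 ± 0.43, Prlr, the prolactin receptor, by -2.28 ± 0.45, and Krt19, a luminal keratin, by -1.73 ± 0.38.

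Of the lists of genes, the contractile list had 5 higher and 0 lower genes among 12 tested. The list of secreted factors and receptors had 4 and 0 among 9, and basal adhesion genes and keratins 2 and 0 among 7. Over all 3182 genes tested, 30 (0.943%) were higher and 18 (0.566%) lower. A listed gene could pass the filter on low counts through the class in which it was high, so these counts do not test the lists. None of the 5 basal transcription factors tested was called by edgeR over all members, and no gene of the pericyte or endothelial lists passed the filter on low counts.

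The Krt8/Krt18-low members alone, in the 4 mice with at least 10 of them, differed from luminal cells in more genes, with contractile, secreted and basement membrane genes on the higher side. Of 2357 genes tested against luminal epithelial cells, 172 (7.3%) were higher and 171 (7.25%) lower, and the median log2 difference of all genes tested was -0.29. These values rest on 94063 UMIs of the low members. Of these UMIs, 63.4% came from 47 cells of replicates 4 and 8 without a Krt14, Krt5 or Krt17 UMI, in which genes not typical of myoepithelial cells were high, as given later with their values. edgeR took the spread from all genes together, so its p-values reach far below what 4 mice can show on their own, where an exact sign-flip test cannot go under 0.125. The number of mice with the same direction is therefore given beside them. For the 10 genes that led each side of a comparison, the same direction in every mouse was a condition for being named. Their number of mice thus adds no support.

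The contractile genes outside the rule came first. Myl9, the regulatory light chain on which Mylk acts, was at 2737, 627, 1079 and 1144 CPM in the low members of replicates 1, 4, 5 and 8, at 0 to 434 CPM in the high members of 7 mice, and at 0 to 10.01 CPM in luminal cells. The low members of all 4 mice lay above the high members and the luminal cells of every mouse. The log2 fold change over luminal cells was 7.64 ± 0.54 (edgeR adjusted p = 6.66e-42, higher in 4 of 4 mice).

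Tagln (transgelin), an actin-binding protein of smooth muscle, was at 1053, 528, 1541 and 318 CPM in the low members of the same mice. Myh11, the smooth muscle myosin heavy chain, was at 1263, 379.6, 616 and 635 CPM, on 47 UMIs in all. In the high members Tagln reached 174 CPM at most and Myh11 had 1 UMI, so that the ranges of the 2 kinds did not overlap for either gene. Against luminal cells the log2 fold changes were 7.19 ± 0.60 for Tagln and 7.53 ± 0.55 for Myh11, both higher in 4 of 4 mice.

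Cnn1 (calponin), another contractile protein of this lineage, did not pass the filter on low counts. It was at 0, 512, 1079 and 572 CPM in the low members of replicates 1, 4, 5 and 8, on 54 UMIs, and at 0 to 4.04 CPM in luminal cells. Replicate 1 was thus the exception among the 4 mice, at a depth of 4750 UMIs.

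Of the 20 contractile genes listed beside Acta2 and Mylk, 14 passed the filter and 10 were higher, 0 lower, with a median log2 fold change of 2.12. The others that rose were Tpm2 (5.62 ± 0.45), Lmod1, a nucleator of smooth muscle actin filaments (4.88 ± 0.50), Flna (3.37 ± 0.48), Cald1 (caldesmon, 2.50 ± 0.40), Csrp1 (1.73 ± 0.48), Tpm1 (1.48 ± 0.40) and Myl6 (1.12 ± 0.39). Smtn, Actn1, Tpm4 and Tagln2 did not pass the test, at log2 differences of 1.42, 0.96, 0.36 and -1.23. A filter on low counts passes a gene that is high in 1 class alone, so these counts describe the list and do not test it.

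Contractile genes share a known promoter element, the CArG box, which serum response factor binds. It reads CC, then 6 bases that are each A or T, then GG, and such a match on 1 strand is also a match on the other. RefSeq promoter windows (GRCm38.p6, 250 bases before to 50 after the gene's start) were found for 19 of the 22 contractile genes including Acta2 and Mylk, and there was no window for Tagln, Myh11 and Actg2. A CArG box stood in a window of 3 of the 19 genes (15.8%), Myl9, Myl6 and Vcl. It stood in 1.63% of all 32851 windows, a share counted over windows and not over genes. The 250 bases before the start of Myl9 and Myl6, the genes of the 3 that rose in low members, are shown with the box in capitals, 5′ to 3′ on the gene's strand. Myl9 lies on the plus strand (chr2:156775214-156775463), and its box begins 161 bases before the start. Myl6 lies on the minus strand (chr10:128493010-128493259), and its box begins 50 bases before the start.
Myl9: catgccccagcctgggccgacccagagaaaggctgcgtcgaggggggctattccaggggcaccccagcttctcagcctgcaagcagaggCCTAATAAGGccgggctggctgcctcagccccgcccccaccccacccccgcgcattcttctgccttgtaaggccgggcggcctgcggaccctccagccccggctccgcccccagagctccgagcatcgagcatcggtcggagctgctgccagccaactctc
Myl6: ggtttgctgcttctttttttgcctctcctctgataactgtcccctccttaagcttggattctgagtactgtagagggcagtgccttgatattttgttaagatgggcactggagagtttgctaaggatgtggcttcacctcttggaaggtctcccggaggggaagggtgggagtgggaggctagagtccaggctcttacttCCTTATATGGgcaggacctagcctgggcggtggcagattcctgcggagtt
A match of letters is no measurement of binding, and the windows of Acta2, Mylk and Cnn1 held no exact match.

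Secreted factors and receptors of myoepithelial cells made up the next group. The oxytocin receptor gene Oxtr had 3, 6, 3 and 3 UMIs in the low members of replicates 1, 4, 5 and 8, or 632, 99.0, 231 and 191 CPM, against 0 to 4.29 CPM in luminal cells of these mice. The counts are small, and each of the 4 mice had some. The log2 fold change was 6.75 ± 0.82 (edgeR adjusted p = 1.07e-14, 4 of 4 mice).

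Igfbp2 was at 3158, 1039.7, 2619.6 and 6671 CPM in the low members of these mice, and Igfbp3, a further binding protein of insulin-like growth factors, at 2526, 446, 770.5 and 1843 CPM. In the high members Igfbp2 lay between 0 and 304 CPM in 6 mice and at 3671 CPM in replicate 8, so that the 2 kinds overlapped there. The overlap rested on 1 cell with 34 Igfbp2 UMIs, while the other high members of that mouse had 2 each at most. That cell counted as high through 6 Epcam UMIs, with no Krt8 or Krt18 UMI, and held 6 Acta2 UMIs. Igfbp3 did not exceed 263 CPM in high members, below each of the 4 low values. The log2 fold changes over luminal cells were 7.17 ± 0.49 for Igfbp2 and 7.79 ± 0.55 for Igfbp3, and Igfbp7 (2.55 ± 0.46) and Igfbp5 (1.94 ± 0.47) rose as well.

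The cytokine gene Il17b was at 842, 165, 1079 and 127 CPM in low members (log2 fold change 6.96 ± 0.62) and had 1 UMI in all high members. The chemokine gene Cxcl14 was at 1474, 248, 1079 and 254 CPM (5.39 ± 0.48), above the 120.3 CPM reached in high members. Timp3 (5.29 ± 0.47), Apoe (4.88 ± 0.50), Sfrp1 (4.50 ± 0.46) and Fgfr1 (1.33 ± 0.49, higher in 3 of 4 mice) also rose. In all, 12 of the 26 genes of this list passed the filter, 11 were higher and 0 lower, with a median of 5.08, and Serpinb5 (-1.61 ± 0.78) did not pass the test. Here too a gene could pass the filter through the class in which it was high, so the count does not test the list.

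Of the 18 basement membrane genes listed, 5 passed the filter on low counts and 5 were higher. The 18 summed to 10787 to 22619 CPM in low members and 224 to 645 CPM in luminal cells, so a gene could pass the filter through the class in which it was high, and the count does not test the list. Sparc was at 13684, 12196, 8167 and 19252 CPM in the low members of replicates 1, 4, 5 and 8, while it lay at 0 to 2559 CPM in high members and at 5.86 to 295 CPM in luminal cells. The low members of the 4 mice lay above all values of the other 2 classes. Col4a1 was at 632, 578, 925 and 953 CPM and Col4a2, which winds together with it into collagen IV, at 632, 1007, 462 and 1207 CPM. Both exceeded every value in high members, which reached 397 CPM for Col4a1 and 397 CPM for Col4a2, and rose by 6.35 ± 0.57 and 6.12 ± 0.56. Col4a5 (2.98 ± 0.48) and Agrn (agrin, 2.40 ± 0.61) rose less. The laminin genes were sparse, with 14 UMIs of Lamc1 and 10 of Lamb1 in all low members.

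The same comparison was made for the 31 low members with a Krt14, Krt5 or Krt17 UMI alone (at least 3 cells in each of the 4 mice, a limit set after the data had been seen), which left out the keratin-free cells. Of 1839 genes tested, 55 (2.99%) were higher and 77 (4.19%) lower than in luminal cells by edgeR. Myl9 (7.76 ± 0.60), Tpm2 (5.53 ± 0.57), Sparc (6.11 ± 0.51), Col4a1 (6.22 ± 0.61), Col4a2 (5.82 ± 0.60), Igfbp2 (6.60 ± 0.55), Igfbp3 (7.65 ± 0.63), Timp3 (5.10 ± 0.48) and Apoe (4.85 ± 0.50) were higher there too, each in 4 of 4 mice. Replicate 8 gave only 3 cells, in which Tpm2 had 1 UMI and the 7 Myl9 UMIs lay in 1 cell. Of the lists, 6 of 11 contractile genes, 5 of 5 basement membrane genes and 5 of 8 secreted factors and receptors were higher and 0 lower. The filter again passed genes through the class in which they were high, so these counts do not test the lists. Of the 58 listed genes called in all low members, 32 had the same call in these cells, 15 did not pass the test, 11 did not pass the filter on low counts and 0 had the opposite call. Igfbp7, Fgfr1, Tpm1 and Myl6 were among those that did not pass the test. Tagln, Myh11, Lmod1, Oxtr, Il17b, Cxcl14, Sfrp1 and Col4a5 did not pass the filter, and the 3 cells of replicate 8 had 0 UMIs of Tagln, Myh11, Oxtr, Il17b and Cxcl14.

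**Figure D3:**
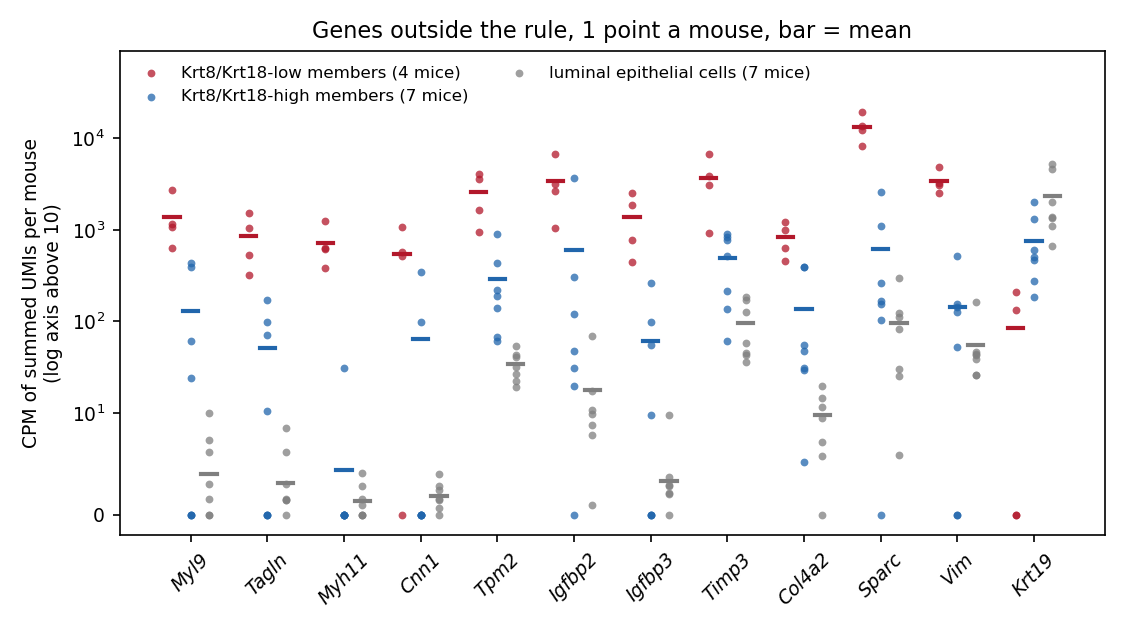
Levels of 12 genes outside the rule in Krt8/Krt18-low members (red, 4 mice), Krt8/Krt18-high members (blue, 7 mice) and luminal epithelial cells (gray, 7 mice), as CPM of summed UMIs on an axis that is linear below 10 and logarithmic above. Each point is 1 mouse and each bar a mean. For Myl9, Tagln, Myh11, Sparc and Col4a2 the red points lie above all others, for Cnn1 and Igfbp2 they overlap the blue ones, and for Krt19 they lie lowest.

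Adhesion genes of basal cells differed less. Of 18 listed, 7 passed the filter. Cd44 (1.91 ± 0.54), Perp (1.64 ± 0.46) and Itgb1 (1.26 ± 0.41) were higher, Sfn was lower (-1.60 ± 0.47), and Itga6, Dst and Plec did not pass the test. In the low members with a basal keratin UMI alone, Perp was higher (1.96 ± 0.58), while Cd44 (1.79 ± 0.67), Itgb1 (1.06 ± 0.51) and Sfn (-1.06 ± 0.55) did not pass the test. Transcription factors were rarely captured. Trp63, which encodes the basal regulator p63, had 5 UMIs in low members and 3 in high ones, and Snai2 had 7 and 2. Id4 rose by 6.39 ± 0.70, Sox9 was lower (-1.41 ± 0.50), and Sox10, Nfib, Tcf4 and Runx1 did not pass the test. In those with a basal keratin UMI alone, Sox9 (-1.15 ± 0.63) did not pass the test and Id4, with 12 UMIs, did not pass the filter on low counts.

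Fmod (fibromodulin, 8.74 ± 0.62) and Matn2 (a matrilin of the extracellular matrix, 7.53 ± 0.63) were the genes outside these lists among the 10 that rose most. The 10 genes that fell most had no UMI in low members. Taking 3 UMIs over all low members as the floor, Saa2 (serum amyloid A) was at least 20.6-fold lower than in luminal cells. Among the others, Fxyd2, Dkkl1, Rab25, Lsr, Tmc4, Smagp, Atp6v1b1 and Elf5 were lower by bounds between 4.17- and 5.89-fold. In the low members with a basal keratin UMI alone, Matn2 was higher and Saa2 lower, Rab25, Lsr, Tmc4, Smagp, Atp6v1b1 and Elf5 did not pass the test, and Fmod, Fxyd2 and Dkkl1 did not pass the filter.

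Luminal genes were low in these members, which had been chosen for few UMIs of Epcam, Krt8 and Krt18, so they are given as a description. Of 16 junction and keratin genes 12 passed the filter and 10 were lower, with a median log2 difference of -4.44, or -3.76 with Muc1, which had 0 UMIs, at its bound. Krt19 had 9 UMIs in low members against 14577 in the luminal cells of these mice. Cldn3, a claudin of tight junctions, had 3 against 4731. Of the milk and alveolar genes, Lalba, Ltf, Muc15 and Elf5 were lower.

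Of the 7 milk and alveolar genes tested, Mfge8 was higher, and Csn3 and Trf did not pass the test. Mfge8, whose product helps phagocytes take up apoptotic cells, was at 2316, 1172, 6009.7 and 1525 CPM in low members of replicates 1, 4, 5 and 8 and rose by 1.87 ± 0.41. Csn3 (kappa-casein) was at 6737, 17839.8, 1695 and 18679.7 CPM, against 20133, 14106, 18396 and 13164 CPM in luminal cells of these mice, with a log2 difference of -1.16 ± 0.57 that missed the threshold (edgeR adjusted p = 0.174). Low members held more Csn3 than luminal cells in 2 of 4 mice. Barcodes with fewer than 200 genes, which were not counted as cells, had Csn3 at 2058 to 14028 CPM over the 7 mice. In the low members with a basal keratin UMI alone, Csn3 (-2.01 ± 0.56) and Trf (-1.41 ± 0.46) were lower than in luminal cells and Mfge8 (1.22 ± 0.47) did not pass the test. The part of free RNA in these values was not tested.

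Markers of other cells were checked beside these values. Of 16 pericyte and vascular smooth muscle genes, 6 had a UMI in low members (25 UMIs in all, 16 of them of Mcam), for summed levels of 0 to 385 CPM against 44.0 to 73.8 CPM in luminal cells of the same mice. The defining genes Des, Higd1b, Notch3, Abcc9 and Vtn had none, Rgs5 had 2 and Pdgfrb 1. Of 12 endothelial genes 3 had a UMI, 6 in all, for 0 to 318 CPM, and Kdr, Cldn5 and Emcn had none. The 9 immune genes summed to 154 to 908 CPM, and to 166 to 1053 CPM in luminal cells.

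Fibroblast genes were higher in low members than in luminal cells, even though cells rich in Col1a1, Col3a1 and Dcn had been left out. The 12 other genes of the list summed to 1387 to 2029.9 CPM in low members, 62.9 to 551 CPM in luminal cells and 28782 to 34188 CPM in fibroblasts of the same mice. Serpinf1 (5.85 ± 0.63), Postn (3.72 ± 0.62) and Col1a2 (1.98 ± 0.51) were higher than in luminal cells, whereas Dpt had 0 UMIs and Lum, Pdgfra and Mfap5 had 1 each. In those with a basal keratin UMI alone, Serpinf1 was higher (4.93 ± 0.64), Col1a2 (1.56 ± 0.71) did not pass the test and Postn did not pass the filter. The part of fibroblast RNA in the matrix values was not tested.

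Against fibroblasts, contractile genes were again higher in the low members, while Vim, Sparc, Col4a1 and Col4a2 did not pass the test. The fibroblasts had been chosen to have no Acta2 or Mylk UMI, so fibroblasts with these contractile genes were not compared. Of 1177 genes tested in 4 mice, 102 (8.67%) were higher and 200 (17%) lower. Myh11 was higher by 5.32 ± 0.56, Lmod1 by 5.81 ± 0.64, Tpm2 by 4.73 ± 0.47, Myl9 by 4.15 ± 0.51 and Tagln by 3.58 ± 0.51, each in 4 of 4 mice. Of the 20 contractile genes listed, 13 passed the filter, and 9 were higher and 0 lower. A gene could pass it through the class in which it was high, so this count does not test the list. Of the secreted factors, Apoe (3.40 ± 0.47), Igfbp3 (3.01 ± 0.47), Igfbp2 (2.94 ± 0.46) and Timp3 (1.80 ± 0.43) were higher, and Cxcl14 (-1.51 ± 0.46) and Igfbp7 (-2.36 ± 0.47) lower.

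Vim, Sparc, Col4a1 and Col4a2 differed from fibroblasts by log2 values of -0.17 ± 0.44, -0.56 ± 0.49, 0.04 ± 0.43 and 0.31 ± 0.44. In the basement membrane list Col4a5 was higher (4.28 ± 0.54) and Hspg2, Lama4, Lamb1 and Nid1 were lower. Fn1 (fibronectin, -3.48 ± 0.52), Mmp2 (-1.91 ± 0.47) and Serpinf1 (-1.55 ± 0.45) were lower. The 2 classes had been chosen for many and for few UMIs of Col1a1, Col3a1 and Dcn, so the other fibroblast genes are given as a description, and 11 of the 11 that passed the filter were lower. In the low members with a basal keratin UMI alone, 4 of 8 contractile genes, Myl9 (4.28 ± 0.53) among them, were higher than in fibroblasts and 0 lower, counts that do not test the list. Tagln, Myh11, Lmod1, Tpm2 and Col4a5 did not pass the filter there, and Hspg2 and Lamb1 did not pass the test.

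The largest increases over fibroblasts were those of Egln3, with 24 UMIs in low members and 0 in fibroblasts (at least 51.8-fold higher), Fabp5 (6.56 ± 0.68), a fatty acid binding protein, Emid1 (6.36 ± 0.64) and Perp (5.88 ± 0.60), a protein of desmosomes. They were followed by Lmod1, Myh11, Cpe, Tpm2, Trf and Col4a5. In the low members with a basal keratin UMI alone, Fabp5 (6.49 ± 0.67), Perp (6.40 ± 0.77) and Trf (3.04 ± 0.55) were higher, and Egln3, Emid1 and Cpe did not pass the filter. Dpt, Cilp, Mmp3, Thy1, Ly6c1, Meg3, Has1, C3, Pi16 and Ifi205 had no UMI in low members and were lower by bounds between 20.6- and 85.5-fold.

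Over both kinds of members together, in 6 mice, 435 of 1376 genes (31.6%) differed from fibroblasts, 126 higher and 309 lower. The higher side was then led by genes that luminal cells express, namely Perp, Trf, Slpi, Csn3, Lcn2, Ltf, Sfn, Wfdc18, Plet1 and Fblim1 (log2 fold changes from 5.09 for Perp to 3.38 for Fblim1). The lower side was led by Dpt, Efemp1, Mfap5, Pi16, Lox, Ifi205, Prg4, Meg3, Serping1 and Col6a3, each with 0 to 2 UMIs in members. Col4a1 was lower than in fibroblasts over all members (-2.23 ± 0.69), but not in the low members alone.

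The Krt8/Krt18-high members differed from luminal epithelial cells in fewer genes. In 7 mice with at least 5 of them, a limit set after the data had been seen, 16 of 3192 genes (0.501%) were higher and 27 (0.846%) lower by edgeR. Tpm2 rose by 2.60 ± 0.32, Sparc by 2.05 ± 0.46, Timp3 by 2.01 ± 0.33, Aldh1a3 by 1.76 ± 0.41, Dmkn, a secreted protein of the epidermis, by 1.75 ± 0.43, Sfrp1 by 1.74 ± 0.30 and Gja1 (connexin 43) by 1.40 ± 0.27. Cd44 (1.20 ± 0.27), Slpi (1.04 ± 0.22), Cald1 (1.02 ± 0.22) and Perp (0.91 ± 0.22) rose less. Sparc rested on few cells, since 4 of the 94 high members held 79 of its 109 UMIs and the 25 of replicate 3 held 0. For Tpm2 and Timp3 the 4 leading cells held 26 of 67 and 51 of 158. Of 10 contractile genes that passed the filter 2 were higher and 0 lower. Of 14 luminal junction and keratin genes 0 were higher and 1, Krt19, was lower (-1.56 ± 0.28).

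Among the lower genes were Scgb2b27 (-5.16 ± 0.34), Fgb (-4.40 ± 0.46), Lalba (-2.12 ± 0.30), Prlr and Areg (-1.60 ± 0.43). Prlr and Areg belong to the hormone-sensing luminal genes, of which 3 of 10 were tested and 2 were lower. Cldn3, Cldn4, Cldn7, Cdh1, Ehf and Krt7 differed from luminal cells by log2 values between -0.35 and 0.13 and did not pass the test, though a p that misses the threshold does not show equal levels. The 2 kinds were not tested against each other.

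**Figure D4:**
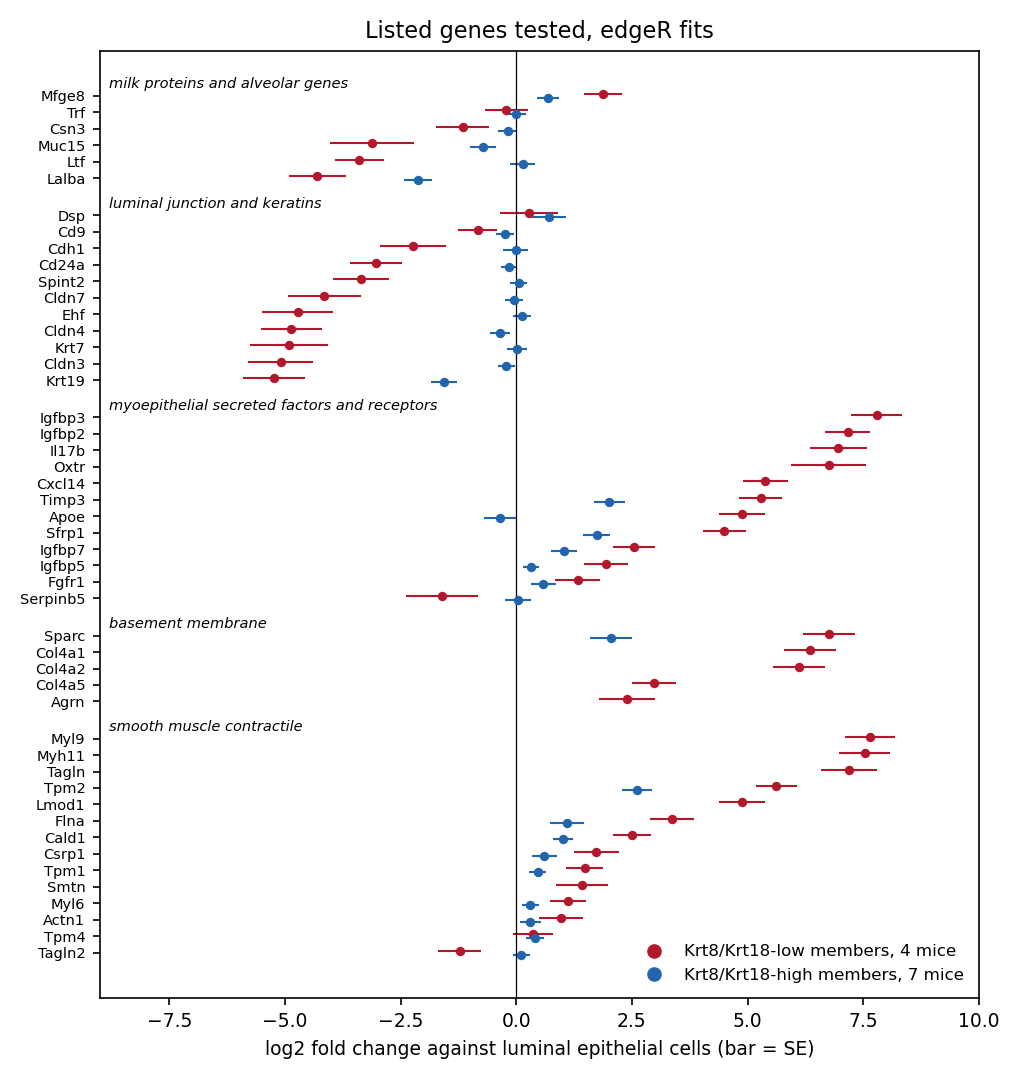
Log2 fold changes over luminal epithelial cells (points, with SE bars) for listed genes that passed the filter and had a UMI in the low members, for Krt8/Krt18-low members (red, 4 mice) and Krt8/Krt18-high members (blue, 7 mice). For the low members most contractile, basement membrane and secreted genes lie to the right of 0 and most luminal genes to the left, while most blue points lie nearer to 0.

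Single cells of 1 mouse set some levels in the high members. Spink12, Cnfn, Asprv1, Klk6 and Klk7, genes of the cornifying epidermis, had 1151 UMIs together in high members, and 3 cells of replicate 3 held 1102 of them. In low members they had 45 UMIs, all in 1 cell of replicate 4, which also held 9 of the 23 Krt14 UMIs of low members. That cell is among the 31 low members with a basal keratin UMI. The wound keratins Krt6a and Krt16 had 91 and 65 UMIs in the 25 high members of replicate 3 and at most 11 and 3 in any other mouse.

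The keratin-free members of replicate 4 formed another set, in which some genes not typical of myoepithelial cells were high. Of the 47 low members of that mouse, 39 had no Krt14, Krt5 or Krt17 UMI, and these cells carried 408 of the 519 UMIs of 1500015O10Rik in all low members. Clca3a2 was at 7919 CPM in them, Apod (apolipoprotein D) at 4372 CPM and Dclk1 at 1854 CPM, against 435, 51.5 and 13.99 CPM in luminal cells of the mouse. The genes Gpm6b and S100b, known from glia, were at 1048 and 1028 CPM, while Mbp, which encodes a myelin protein, had 0 UMIs. Myl9 was at 484 CPM and Tagln at 363 CPM, below the 1277 CPM that each had in the 8 keratin-positive low members of this mouse. For Tagln that higher value rests largely on a single cell with 11 UMIs, while the rest lay in cells with 2 and 1. Sparcl1 was not particular to the keratin-free cells, at 4856 CPM in them and at 7015, 2918, 1761 and 524 CPM in the keratin-positive low members of replicates 1, 4, 5 and 8.

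In the 8 keratin-free low members of replicate 8, Apod (4193 CPM), Gpm6b (2796 CPM) and Dclk1 (1498 CPM) were above luminal cells as well. Single cells set much of the first pair of values, since 35 of the 42 Apod UMIs lay in 1 cell and 16 of the 28 Gpm6b UMIs in another. Apod and Gpm6b each had a UMI in 4 of the 8 cells and Dclk1 in 6. In replicate 4 Apod had a UMI in 28 and Gpm6b in 20 of the 39. The 3 and 7 such cells of replicates 1 and 5 had 0 UMIs of Apod, Gpm6b, Dclk1 and S100b, while Myl9 was at 3373 and 1568 CPM in them. These genes were picked after their values had been seen and were not tested.

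Whether members with and without a basal keratin UMI differ was asked of all members. Of the mice only replicate 4 had 10 cells on both sides, so the limit was lowered to 4 cells after the data had been seen, which left 5 mice. Of 381 genes tested by edgeR 9 (2.36%) differed. Cldn3 (1.90 ± 0.40) and Hspb1 (1.52 ± 0.34), a small heat shock protein, were higher in keratin-positive members. Aebp1 (-2.78 ± 0.42), Sparc (-2.40 ± 0.40), Spp1 (-2.40 ± 0.57), Chil1 (-2.21 ± 0.52), Sparcl1 (-2.06 ± 0.49), Sfrp1 (-2.03 ± 0.35) and Vim (-1.75 ± 0.40) were lower. With no block for the mouse edgeR called 0 genes (29 at an unadjusted p below 0.05), and DESeq2, with the block, called 16. The keratin-positive cells were mostly of the high kind, 85 against 31 low ones, so that the keratin UMI and the luminal UMIs cannot be told apart in this comparison. Among low members alone edgeR called 0 of 64 genes (3 at an unadjusted p below 0.05).

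The transgene that drives these tumors was measured in members as well. PYMT was at 516, 293, 263, 1366, 1615 and 2479 CPM in the members of replicates 1, 3, 4, 5, 7 and 8, against 979, 788, 847, 2997, 3031 and 3076 CPM in luminal epithelial cells of the same mice. Members were lower in each of the 6 mice, and luminal cells were lower in the CB series than in the WT series. The mean log2 difference was -1.06 ± 0.48 (SD, n = 6, exact 2-sided sign-flip test, p = 0.03125, also after adjustment over 2 comparisons, which is as low as 6 mice can go). It was -1.34 in the 3 mice of the CB series and -0.78 in the 3 of the WT series, where 3 mice cannot give an exact p under 0.25.

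Against immune cells, members were higher in 6 of 6 mice, by 2.78 ± 1.16 on the log2 scale (SD, n = 6, same exact test, p = 0.03125, adjusted 0.03125). The difference was 2.81 in the CB series and 2.74 in the WT series. The 2 kinds differed in this comparison. High members alone (at least 5 cells) were higher than immune cells in 7 of 7 mice, by a mean of 2.99. Low members alone were higher in 3 of 4 mice, with a mean difference of -0.35. They were lower in replicate 1, where they had no PYMT UMI. The exact test cannot pass with 4 mice, so the increase over all members is not shown for the low kind. Immune cells held 10.3 to 575 CPM of PYMT in the 6 mice, and barcodes under 200 genes held 552 to 1419.8 CPM over the 7 mice. The part of free PYMT RNA in the members' values was not tested.

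By kind, the high members carried PYMT at 293 to 1727 CPM, lower than luminal cells in 7 of 7 mice (edgeR log2 difference -1.07 ± 0.18). The low members of replicates 1, 4, 5 and 8 had it at 0, 215, 462 and 3240.4 CPM, lower than luminal cells in replicates 1, 4 and 5 and higher in replicate 8. In replicate 8, 3 of the 11 cells held 44 of the 51 UMIs, and the other 8 stood at 766 CPM. The 3 cells were set apart by their PYMT UMIs and no luminal cells were, so this remainder cannot be set against the luminal level. For replicate 1 no UMI was seen among 4750. edgeR gave the low members a difference of -1.70 ± 0.46, and those with a basal keratin UMI one of -1.50 ± 0.52 that did not pass the test, whereas the exact sign-flip test over the 4 mice gave p = 0.25. A PYMT UMI was present in 21 of 89 low members (23.6%) and in 58 of 94 high members (61.7%), which differ in depth as given above.

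**Figure D5:**
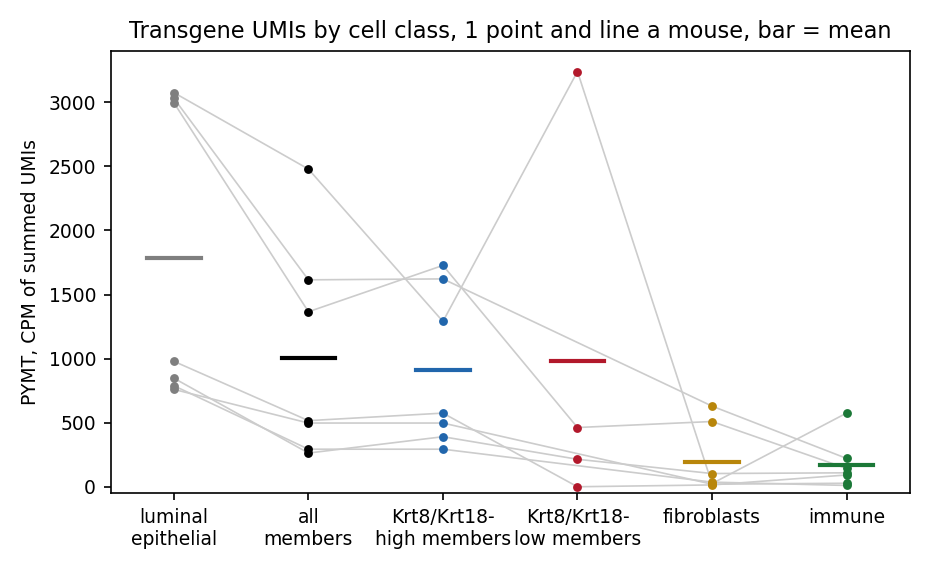
PYMT in CPM of summed UMIs by cell class, 1 point for each mouse, lines joining the same mouse and bars for means. All members together lie below luminal epithelial cells and above immune cells in each mouse compared, and the low members of replicate 8 stand apart at 3240.4 CPM.

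Of the genes of the hexokinase study, Hk2, Hk1 and Snai1 were scarce in these cells. Hk2, the floxed gene, had 2 UMIs in low members (pooled level 21.3 CPM, exact 95% interval 2.57 to 76.8) and 7 in high members (16.7 CPM, 6.72 to 34.4), against 36.6 to 83.7 CPM in luminal cells and 268 to 659 CPM in fibroblasts of the mice with low members. It was lower in low members than in fibroblasts (-4.06 ± 0.81, 0 of 4 mice higher). Hk1 had 4 and 27 UMIs in low and high members, and Snai1 had 2 and 6. At these counts the levels of Snai1 are not compared. Vim rose by 5.79 ± 0.48 and Mmp2 by 5.99 ± 0.53 in low members over luminal cells, and Cdh1 (E-cadherin) was lower (-2.24 ± 0.72), the last in cells chosen for few luminal UMIs. In those with a basal keratin UMI alone, Vim was higher (5.45 ± 0.51), Cdh1 (-2.99 ± 1.23) did not pass the test and Mmp2, with 5 UMIs, did not pass the filter. The 14 cell cycle genes had 23 UMIs in low members and 221 in high members, of which Mki67 had 1 and 18.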

How the data were processed

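Single cells of 7 control tumors were measured by Drop-seq, which encloses cells with barcoded beads in droplets. The authors filtered the reads and aligned them to a mouse reference (mm10) that also held PyMT. They deposited raw counts of UMIs, 1 matrix of genes by barcodes for each tumor. The submitters' processing notes name STAR and FastQC, and also GRCh37.p13 and hg19, which differs from the mouse build in the paper. The counting program and annotation are not given in the sources used here. Mitochondrial genes were absent from 5 matrices, and 26 and 27 of them were removed from the other 2.

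A barcode was taken as a cell where it had 200 to 6000 genes (1133 to 4780 per mouse, 15047 of 37000), with 962677 to 4471473 UMIs per mouse and medians of 362 to 467 genes per cell. Doublets were left to the upper limit. Cells were sorted into classes by the UMI rules given in the results, with immune cells having at least 2 UMIs of at least 2 of Ptprc, Tyrobp, Laptm5 and Coro1a. The members, the rules and the gene lists were chosen with earlier results of these data known.

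UMIs were summed per mouse and class. Comparisons used the mice that had 10 or more cells of both classes, and the 2 sums of a mouse were paired by the mouse they came from. Sums were compared by edgeR 4.0.16 in R 4.3.3 (quasi-likelihood test, TMM factors, genes filtered by filterByExpr) with Benjamini-Hochberg adjustment over all genes tested and a threshold of 0.05. PYMT was compared by an exact sign-flip test on log2(CPM + 1). The edgeR fits were also run on simulated sums with the same spread for every gene. Those sums held no variation between cells, so the run cannot vouch for p-values on sums of few cells. Python 3.11.15, numpy 2.4.6, scipy 1.17.1, pandas 2.3.3 and matplotlib 3.10.9 were used.

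The genes named are those of the lists and, per edgeR comparison, the 10 with the largest change in each direction among those called and changed the same way in every mouse, apart from 1 gene that is not reported here. Genes of the cornified and keratin-free cells, and those of the high members outside the lists, were named after their values had been seen. Alternatives were RLE size factors, no gene filter, no block, DESeq2 1.42.0, a pseudocount of 10 CPM, at least 500 genes per cell, 20 cells per class or 6 UMIs of the rule's genes, each series alone, each mouse left out, and, added later, the high members alone, the low members with a basal keratin UMI alone, replicates 3 and 7 left out and cells thinned to 500 UMIs. Replicates are separate mice, and p-values cover the spread between them. Intervals cover counting error only.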

Additional observations from a re-analysis of the deposited data

Results flagged for a closer look

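Of 38 sets of values over 4 or 6 mice, 6 held a mouse that lay far from the others for the range of the set. The cut-off is set to mark about 1 in 20 sets of normally distributed values. CPM values with 0 in most mice, such as those of Fgb, do not have that form, so the 6 cannot be read against that rate. In the members of replicate 4, Igfbp4 was at 777 CPM (next highest 232), AW112010 at 311 CPM (next 88.1) and Fgb at 119.5 CPM (0 in the other 5 mice). In those of replicate 8, Igfbp2 was at 5500.0 CPM (next 837), and in those of replicate 1, Pcp4 was at 193 CPM (next 41.5). In the Krt8/Krt18-low members, PYMT was at 3240 CPM in replicate 8 (next 462 among 4 mice). These are sums over 11 to 56 cells of a mouse, and their causes were not tested.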

How the results depend on the processing

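The count of genes that differed between members and luminal epithelial cells, 48 by edgeR, was 344 with no filter on low counts, 24 with no replicate block, 25 to 64 with 1 mouse left out, 30 in the WT series, 25 at 500 genes per cell, 343 for Krt8/Krt18-low members, 132 for those with a basal keratin UMI, 74 for members with a basal keratin UMI and 100 without replicates 3 and 7. The split of 30 higher and 18 lower became 21 and 23 without replicate 1, 12 and 13 without replicate 5, 29 and 35 without replicate 8, 17 and 22 in the CB series, 14 and 16 in the WT series, 11 and 14 at 500 genes, 11 and 25 at 20 cells per class, 31 and 43 for members with a basal keratin UMI, 55 and 77 for low members with one, and 16 and 27 for high members. Against fibroblasts, 435 became 1246 with no filter, 277 in the CB series and 186 for low members with a basal keratin UMI, and in low members Col4a1 (0.037), Fst (0.074) and Wfdc18 (-0.69, or -0.34 in those with a basal keratin UMI) turned direction without being called. The keratin split, 9 genes, gave 16 with DESeq2, 4 to 6 with 1 mouse left out, and 0 with no block (29 at an unadjusted p below 0.05), in the CB series (56), the WT series (24), at 500 genes (53), at 6 UMIs (20) and in low members (3). It had only 2 mice in the CB series and at 6 UMIs.

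The log2 difference of PYMT from luminal cells was -1.21 to -0.94 with 1 mouse left out, -1.34 and -0.78 in the CB and WT series, -1.0001 at 500 genes, -1.29 at 20 cells, -1.23 with a keratin UMI and -3.63 in low members. From immune cells it was 2.39 to 3.08, 2.81 and 2.74, 3.35, 3.02, 2.89 and -0.35, the last higher in 3 of 4 mice. These settings hold 3 to 5 mice, too few for the exact test to pass. The median share of members, 1.41%, was 2.21% at 500 genes and 0.795% after thinning. Where no value is given, total counts stayed within 1.5 times. Of the named genes' values, 460 kept direction and call and 123 lost the call against luminal cells, 1039 and 61 against fibroblasts, and 39 and 77 in the keratin split. Apart from differing numbers of mice or genes, the causes were not tested. Depth limits all levels that rest on few UMIs, such as those of Trp63, Snai1 and Hk2.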
